A study of Saccharomyces cerevisiae with 38 samples.

Results

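Yeast (Saccharomyces cerevisiae) carrying both the hpa2 and the ts2 mutation were compared with yeast carrying ts2 alone, on the 2 arrays titled hpa2 ts2 (A and B) and the 6 arrays titled ts2 (A to F), out of 38 arrays in all. The arrays were chosen by their titles. Each array carried polyA RNA of a mutant strain in one dye and RNA of the wild-type (WT) strain in the other, and the deposited value is their ratio. The mutant RNA was in Cy5 on hpa2 ts2 array A and in Cy3 on array B, and 3 ts2 arrays had each orientation. The groups used as references were elp3 ts2, hpa2 alone, elp3 alone and the ts2 strains with hat1, sas3, gcn5 or esa1 (2 arrays each), and WT against WT (8 arrays). All strains, WT included, were grown in complete synthetic medium without histidine to an OD600 of about 0.8 and moved to 37 °C for 45 minutes. The labels give no allele of hpa2, no cell count and no statement that arrays A and B came from separate cultures. The p-values therefore measure the spread between arrays, which may be technical. That spread was pooled over all 38 arrays and is not that of the hpa2 ts2 and ts2 arrays alone.

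TAF1, the gene that the ts2 allele alters, encodes a central subunit of TFIID, the general transcription factor that recognises promoters and brings TATA-binding protein to them, and ts2 is a temperature-sensitive allele whose product fails at the temperature used here. HPA2 encodes a small acetyltransferase of the Gcn5-related family that acetylates histone tails and polyamines in vitro. Unlike Gcn5 of the SAGA coactivator or Esa1 of NuA4, Hpa2 has no known place in a large coactivator complex. The comparison asks what the hpa2 mutation adds once TAF1 function is lost.

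Levels are given as log2 of the ratio minus the median log2 ratio of the same array, so 0 is the level of the middle gene and 1 is a ratio 2-fold above it. Array medians of the ratio were 1.73 on hpa2 ts2 A and 0.533 on hpa2 ts2 B, against 0.329 to 1.21 on the ts2 arrays, and these shifts were removed. On the scale as deposited, the middle gene lay 0.29 higher in hpa2 ts2 than in ts2, so each direction below is relative to that shift. Between 1.74% and 3.33% of spots on the 8 arrays had no ratio above 0 and gave no value. Differences are fitted values from limma, with their standard error (SE). A gene was called where its p-value, adjusted by Benjamini-Hochberg over all genes of the comparison, was under 0.05.

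The labels of array A of hpa2 ts2 disagree with each other: its title is hpa2 ts2, while its strain number is the one given for elp3. ELP3 encodes the catalytic subunit of Elongator, an acetyltransferase complex that modifies tRNA. SLH1 encodes an RNA helicase, lies close to TAF1 on its chromosome, and read 2.95 or more on every array of a ts2 strain. Its level was 2.95 on hpa2 ts2 A and 3.03 on hpa2 ts2 B, 3.29 to 4.53 on the ts2 arrays, -0.01 and 0.30 on the elp3 arrays and -0.28 to 0.19 on the WT arrays. At SLH1, array A thus read like array B and unlike the arrays of elp3 alone. The SLH1 difference from ts2 was called (-0.77, SE 0.24, limma adjusted p = 0.047) and was lost without array A (0.22), without array B (0.18) and with the block described below (0.30). HIS3, a histidine synthesis gene, gave 1.88 on array A and 1.24 on array B, against 1.05 to 1.70 in ts2 and 0.07 to 0.23 in elp3. Neither gene can tell hpa2 ts2 from elp3 ts2, whose levels differed by -0.12 (SE 0.29) at SLH1 and -0.01 (SE 0.20) at HIS3. The HPA2 spot did not check the labels: it read -0.74 and -0.35 in hpa2 ts2, -1.03 and 1.47 in hpa2, -1.74 to 0.42 in ts2 and -1.22 to 2.46 in WT. The ELP3 spot did not check them either, with -0.60 and -0.16 in elp3 ts2, 0.05 and 0.10 in elp3, and -0.46 and -0.22 in hpa2 ts2. Results are therefore given for the arrays as titled. Of 53 named genes called against ts2, 27 stayed called without array A and 21 without array B.

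The array titles also open with a number whose meaning the labels do not give. Both hpa2 ts2 arrays have numbers from 5 to 9 (6 and 8), and the ts2 arrays have numbers of 29 and above. The elp3 ts2 arrays carry the same 2 numbers as the hpa2 ts2 arrays. Over all genes, hpa2 ts2 A correlated at r = 0.79 with elp3 ts2 A (title number 6) and hpa2 ts2 B at 0.79 with elp3 ts2 B (title number 8), while hpa2 ts2 A and B correlated at 0.53 with each other and at 0.52 to 0.70 with the ts2 arrays. Genes are not independent and arrays of 1 title number may share more than RNA, so these values describe the arrays only. Values of elp3 ts2 are set beside those of hpa2 ts2 below, since a difference from ts2 alone cannot be told apart from a difference between title numbers. The comparisons with ts2 and with elp3 ts2 share the hpa2 ts2 arrays.

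Against ts2, 157 genes were higher in hpa2 ts2 (2.84% of 5524 tested) and 190 were lower (3.44%), 6.28% together. Among the lower genes with the smallest p-values were 4 that lay above 0 on all ts2 arrays and near or below 0 on both hpa2 ts2 arrays: MAK5, a helicase of large ribosomal subunit assembly, RFC5, a subunit of the clamp loader of DNA replication, PRM8, a membrane protein gene of the pheromone response, and ATG10, a conjugating enzyme of autophagy. The rises with both arrays above the ts2 range and the largest differences were those of TRZ1, which trims tRNA 3′ ends, VPS20, a subunit of the ESCRT-III membrane complex, and BIR1, a subunit of the chromosomal passenger complex. Of the called genes, 34 were higher and 35 lower by 1 or more on the log2 scale, and the median size of a called difference was 0.74. Both hpa2 ts2 arrays lay above all ts2 arrays for 117 of the higher genes (2.12% of those tested), and below all of them for 158 of the lower genes (2.86%). Called or not, 6.14% of all genes had both arrays above the ts2 range and 7.6% had both below it. The call count was 57 with the range of title numbers as a block, of which 51 were among the 347, and 139 without hpa2 ts2 array B. On the scale as deposited, which keeps the array shifts, 1 gene was called, and 3 were with each array scaled to the same spread and 6 in a fit of the 8 arrays alone. In RNA from whole cultures, fewer cells with an mRNA and less of it per cell cannot be told apart.

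**Figure D1:**
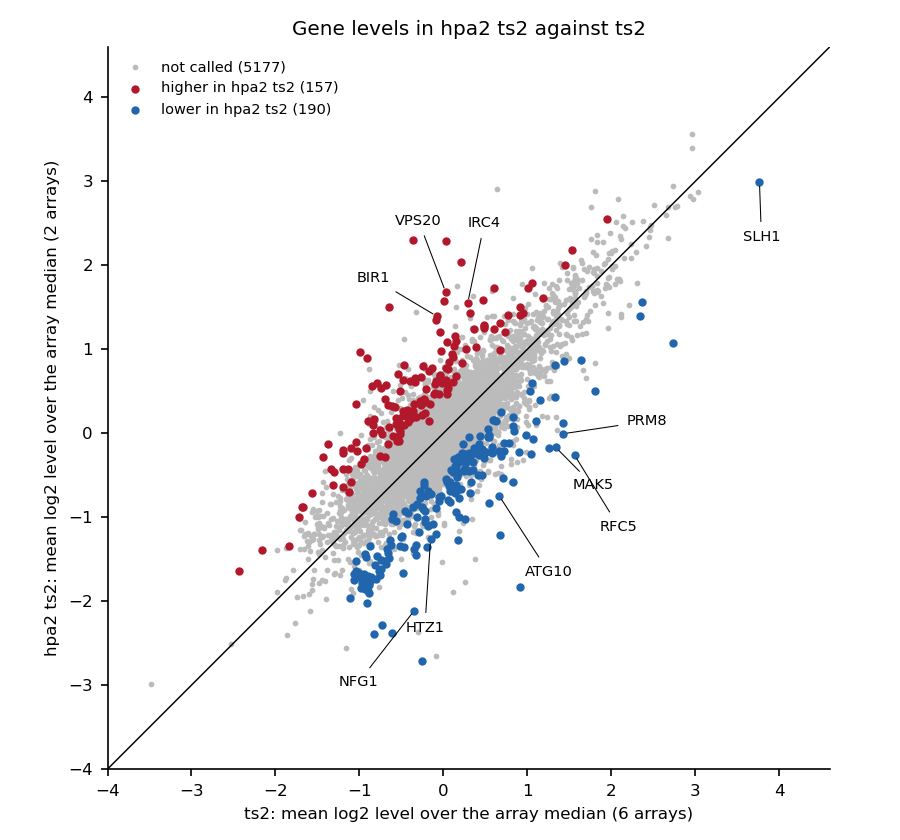
Each point is 1 of 5524 genes, at its mean log2 level over the array median in ts2 (x axis, 6 arrays) and in hpa2 ts2 (y axis, 2 arrays); the line marks equal levels. The 157 genes called higher in hpa2 ts2 are red and the 190 called lower are blue, and MAK5, RFC5 and PRM8 sit near 0 in hpa2 ts2 and above 1 in ts2.

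MAK5 gave the smallest p-value of the named genes. Its level was -0.07 and -0.27 on hpa2 ts2 A and B, and 0.997, 1.20, 1.25, 1.39, 1.45 and 1.75 on the ts2 arrays in order of size. The groups did not overlap, and the hpa2 ts2 values lay near the WT range of -0.14 to 0.16. The difference was -1.51 (SE 0.13, n = 2 and 6, limma adjusted p = 4.5e-08). MAK5 was also high in sas3 ts2 (1.45 and 1.18), gcn5 ts2 (1.63 and 1.59) and esa1 ts2 (2.19 and 1.98), and lay at 0.68 and 0.79 in hat1 ts2. In elp3 ts2 it was as low as in hpa2 ts2, at -0.09 and -0.41.

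RFC5 was also near or below 0 in hpa2 ts2 and high in ts2. It lay at -0.28 and -0.24 in hpa2 ts2, between 1.15 and 1.89 (median 1.59) in ts2, and at 0.05 and -0.25 in elp3 ts2. Its difference from ts2 was -1.82 (SE 0.19, n = 2 and 6, limma adjusted p = 1.5e-06). PRM8 lay at 0.12 and -0.13 in hpa2 ts2, between 1.25 and 1.66 (median 1.35) in ts2, and at -0.55 and -0.88 in elp3 ts2. It fell by 1.43 on the log2 scale against ts2 (SE 0.19, n = 2 and 6, limma adjusted p = 2.2e-05). ATG10 lay at -0.68 and -0.81 in hpa2 ts2, between 0.21 and 0.86 (median 0.75) in ts2, and at -0.63 and -0.85 in elp3 ts2. Its difference from ts2 was -1.41 (SE 0.17, limma adjusted p = 1.4e-05). All 4 genes stayed called with the range of title numbers as a block, at differences of -1.59 (MAK5), -1.95 (RFC5), -1.46 (PRM8) and -1.65 (ATG10), and without either hpa2 ts2 array. None was called between hpa2 ts2 and elp3 ts2, which share their title numbers, with differences of 0.08 ± 0.16 (SE) for MAK5, -0.16 ± 0.24 for RFC5, 0.71 ± 0.23 for PRM8 and -0.01 ± 0.21 for ATG10. A p that misses the threshold does not show that the strains are alike for these genes.

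NFG1, a negative regulator of filamentous growth, and HTZ1, which encodes the histone variant H2A.Z, fell against ts2 and lay below the WT range. NFG1 lay at -2.09 and -2.14 in hpa2 ts2 and between -0.82 and 0.22 (median -0.39) in ts2 and between -0.24 and 0.25 in WT, a difference of -1.77 (SE 0.32, limma adjusted p = 0.0015). HTZ1 lay at -0.92 and -1.61 in hpa2 ts2, between -0.51 and 0.21 (median -0.13) in ts2 and between -0.03 and 0.26 in WT, a difference of -1.11 (SE 0.17, limma adjusted p = 0.0003). Here too elp3 ts2 was low, at -1.77 and -2.14 for NFG1 and at -0.96 and -1.27 for HTZ1. VHT1, the plasma membrane biotin transporter, read -0.85 and -1.57 in hpa2 ts2, 0.19 to 1.29 in ts2 and -0.75 and -0.09 in elp3 ts2. The VHT1 call (difference -1.88, SE 0.33, limma adjusted p = 0.00099) was lost with the range block (0.056) and without array B (0.089). ZPS1, a zinc- and pH-regulated surface protein gene, read -2.51 and -2.26 in hpa2 ts2 and -0.94 to -0.25 in ts2. The ZPS1 difference of -1.77 (SE 0.54, limma adjusted p = 0.048) kept its direction and lost its call with the range block (0.42), without array A (0.28), without array B (0.13) and without ts2 A, B, C, D or E (0.056 to 0.076).

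**Figure D2:**
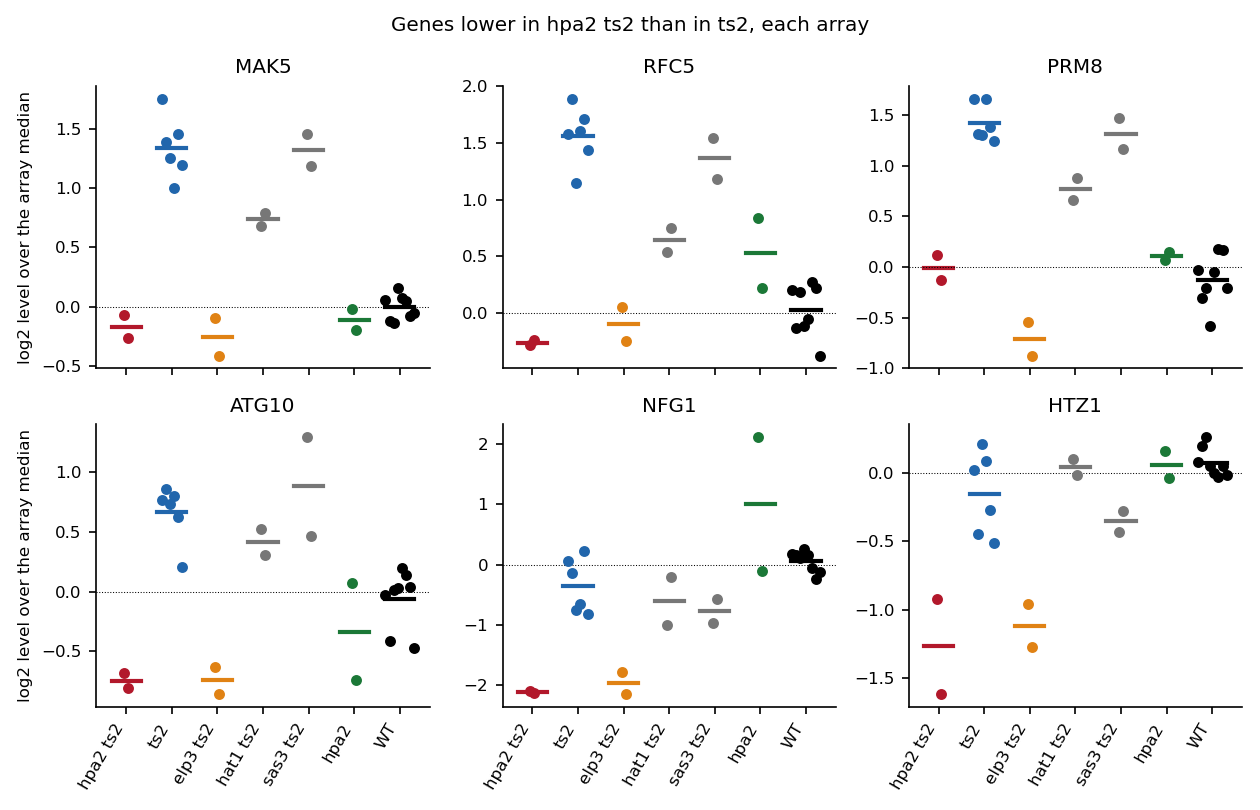
Log2 level over the array median of 6 genes on each array (points) of hpa2 ts2, ts2, elp3 ts2, hat1 ts2, sas3 ts2, hpa2 and WT, with the group mean as a bar. MAK5 is at -0.07 and -0.27 in hpa2 ts2 and at 0.997 or above in ts2, and elp3 ts2 lies near hpa2 ts2 for MAK5, RFC5, ATG10, NFG1 and HTZ1.

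Several further falls rested on 1 hpa2 ts2 array. TEX1, a subunit of the TREX complex of mRNA export, read -4.63 on array A and -0.79 on array B, against -0.43 to -0.03 in ts2, and its difference of -2.45 became -0.54 without array A (adjusted p = 0.27). GDH3, a glutamate dehydrogenase gene, read -1.45 and 0.29 against 0.51 to 1.08, and -0.55 (adjusted p = 0.24) was left without array A. MMS22, a DNA repair gene, read -0.09 and 2.23 against 2.31 to 3.06, and DNL4, the ligase of end joining, read -1.71 and 0.04 against 0.18 to 1.61. Without array A their differences were -0.62 (MMS22) and -0.55 (DNL4), with adjusted p-values of 0.60 and 0.51. SER3, an enzyme of serine synthesis, read -0.67 and 0.32 against 0.9997 to 1.58, and its difference of -1.43 was -1.02 without array A (adjusted p = 0.21). The arrays thus gave unequal values for these 5 genes. Both lay below the ts2 range for each of them, which the rule for naming falls required. All 5 calls were also lost with the range block (adjusted p = 0.27 for TEX1, 0.056 for GDH3, 0.71 for MMS22, 0.35 for DNL4 and 0.36 for SER3). The elp3 ts2 arrays were below the ts2 range too for GDH3 (-0.27 and -0.37), MMS22 (0.07 and 1.24), DNL4 (-0.16 and -0.14) and SER3 (0.19 and 0.50), and for TEX1 1 of them was (-0.70 and -0.34).

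Among the rises, VPS20 read alike on both arrays. It was at 1.60 and 1.77 on hpa2 ts2 A and B, and -0.55 to 0.49 (median -0.02) on the ts2 arrays. No other group of double mutants reached these values: elp3 ts2 read 0.19 and -1.08, hat1 ts2 0.27 and 0.04, sas3 ts2 0.28 and 0.25, gcn5 ts2 0.57 and 0.36, and esa1 ts2 0.34 and 0.02. VPS20 rose by 1.66 against ts2 (SE 0.26, n = 2 and 6, limma adjusted p = 0.00028) and by 2.13 against elp3 ts2 (SE 0.31, n = 2 and 2, limma adjusted p = 0.00063). In hpa2 alone VPS20 read 0.47 and -0.02. It stayed called against ts2 with the range block (1.80, adjusted p = 0.015) and without either hpa2 ts2 array. The call was lost on the scale as deposited, with each array scaled to the same spread and in the fit of the 8 arrays alone. A fit of title numbers 5 to 9 and ts2 alone lost it too.

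BIR1 read 1.15 and 1.64 in hpa2 ts2, -0.43 to 0.30 in ts2 and 1.08 and 0.44 in elp3 ts2, a difference from ts2 of 1.48 (SE 0.28, limma adjusted p = 0.002) that was 1.16 without array B (adjusted p = 0.094). IRC4 read 1.66 and 1.45 in hpa2 ts2, -0.33 to 0.64 in ts2 and 1.69 and 1.89 in elp3 ts2, a difference from ts2 of 1.26 (SE 0.22, limma adjusted p = 0.00087) that was 1.05 with the range block (adjusted p = 0.054). IRC4 was thus as high in elp3 ts2 as in hpa2 ts2. AMA1, an activator of the anaphase-promoting complex in meiosis, and AIM23, a mitochondrial translation initiation factor, were also above the ts2 range on the arrays of both hpa2 ts2 and elp3 ts2. AMA1 read 1.04 and 1.65 in hpa2 ts2 and 1.14 and 0.81 in elp3 ts2, with -1.31 to 0.43 in ts2. AIM23 read 0.64 and 0.98 in hpa2 ts2 and 0.70 and 0.82 in elp3 ts2, with -1.23 to 0.11 in ts2. Both calls were lost with the range block (adjusted p = 0.16 for AMA1, 0.12 for AIM23) and without array B (0.13 for each).

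NOG2, a GTPase of large ribosomal subunit assembly, read 0.14 and 1.26 in hpa2 ts2, -0.73 to -0.26 in ts2 and -1.41 and -0.40 in elp3 ts2. It rose by 1.24 against ts2 (SE 0.27, limma adjusted p = 0.0067) and by 1.60 against elp3 ts2 (SE 0.33, limma adjusted p = 0.028). Without array B its difference from ts2 was 0.71 (adjusted p = 0.26). TRZ1 read 2.80 on array A and 0.21 on array B, against -0.80 to -0.43 in ts2, and its difference of 2.15 was 0.98 without array A (adjusted p = 0.41). SEC10, a subunit of the exocyst, read -0.53 and 1.23 against -1.25 to -0.84, and without array B its difference of 1.39 was 0.50 (adjusted p = 0.47). HUA2 read 1.17 and 0.04 against -1.47 to -0.20, and without array A its difference of 1.40 was 0.93 (adjusted p = 0.36). SHH4, a mitochondrial membrane protein gene, read 1.30 and 1.11 against -0.42 to 0.21 (difference 1.24, SE 0.35, limma adjusted p = 0.031), and its call was lost without array A (0.23), without array B (0.10) and with the range block (0.053). FYV12 and LSM5, the latter a subunit of the RNA-binding Lsm ring, were low in ts2 and closer to 0 in hpa2 ts2. FYV12 read -0.19 and -0.07 against -2.04 to -0.77, and LSM5 read -0.26 and -0.32 against -2.58 to -0.70 on the 5 ts2 arrays that gave a value. In elp3 ts2 they were near 0 as well, at -0.44 and 0.52 for FYV12 and at -0.05 and -0.34 for LSM5. Both calls were lost with the range block (adjusted p = 0.099 for FYV12, 0.45 for LSM5) and without array B (0.10 and 0.13), and that of FYV12 also without array A (0.096).

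Gene lists are described by how many of their tested members were called and by their median difference, beside 2.84% higher, 3.44% lower and a median of 0.01 over all genes. Lists were chosen with earlier results of these data known. Genes of the G1/S transition and of DNA replication had 9 of 44 members lower (20.5%) and 2 higher (4.55%), with a median difference of -0.35. The lower members were RNR1 (the large subunit of ribonucleotide reductase), RAD27 (the flap nuclease of Okazaki fragments), POL12 and DPB2 (subunits of DNA polymerases alpha and epsilon), HCM1 (a transcription factor of S phase), TOF1 (a fork protection protein), PCL2 (a cyclin of Pho85), GIC1 (a Cdc42 effector) and CSI2. CSI2 read -0.27 and -0.72 in hpa2 ts2 and 0.11 to 0.79 in ts2, a difference of -0.96 (SE 0.19, limma adjusted p = 0.003). RNR1 read -0.36 and 0.13 against 0.16 to 1.13, a difference of -0.90 (SE 0.26, limma adjusted p = 0.039). POL12 read -0.62 and -0.65 against -0.21 to 0.39, and PCL2 read 0.50 and 0.51 against 0.90 to 1.29. CLN1, a G1 cyclin, and CTF4, an adaptor of the replication fork, were the 2 higher members, with CLN1 at 0.47 and 0.91 against -0.37 to 0.21. The CSI2 call was lost with the range block (adjusted p = 0.11) and without array B (0.13). The RNR1 call was lost with the range block (0.68), without array A (0.26), without array B (0.12) and without ts2 A, B, C, D or E (0.051 to 0.067).

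The median level of the whole G1/S and replication list was -0.30 on hpa2 ts2 A and -0.16 on hpa2 ts2 B, below its range of -0.08 to 0.16 on the ts2 arrays. It was 0.02 and 0.19 in elp3 ts2 and -0.13 and -0.04 in hpa2 alone. The median difference of its members from elp3 ts2 was -0.43, with 0 members called there. With the range of title numbers as a block, the median difference from ts2 was -0.21, and 1 member was lower and 1 higher. Without hpa2 ts2 array A or ts2 array A, 5 members were lower, without ts2 D 4 were, and without hpa2 ts2 array B 2 were. No member was called with array weights, on the scale as deposited, with scaled spread, from the 8 arrays alone or from title numbers 5 to 9 and ts2 alone.

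Of the heat shock factor chaperone genes, 1 of 32 was called: YDJ1, an Hsp40 cochaperone, which read 0.52 and -0.07 against -0.66 to -0.12 and was higher by 0.60 (SE 0.15, limma adjusted p = 0.018), by 0.40 without array A (adjusted p = 0.30) and by 0.48 with the range block (adjusted p = 0.39). The list's median level was 0.79 and 0.89 on hpa2 ts2 A and B, 0.35 to 0.52 in ts2, 0.24 and 0.36 in elp3 ts2 and -0.28 to 0.16 in WT. Both hpa2 ts2 values thus lay above the ts2 and elp3 ts2 values, with a median difference from ts2 of 0.21 over the members. Of the Msn2 and Msn4 stress genes, which answer to the general stress response, 0 of 56 were called, and the median difference was 0.01. Their median level was 1.50 and 1.88 in hpa2 ts2, 1.51 to 2.08 in ts2 and 1.31 and 1.20 in elp3 ts2. Of 16 glycolysis and fermentation genes, 0 were called, with a median difference of 0.11.

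Of the ribosomal protein genes, which are low in ts2, 6 of 135 were higher (4.44%), with a median difference of 0.21. With the range block the median was 0.089 with 1 member higher, without hpa2 ts2 A 0.12 with 1 higher, and without hpa2 ts2 B 0.33 with 1 higher. Without ts2 A or ts2 D, 2 were higher, and without ts2 B 10 were. The 6 were RPS24B, RPS30A, RPL28, RPL27A, RPL22B and RPL20B. RPS24B read 0.04 and -0.03 in hpa2 ts2, -1.30 to -0.64 in ts2 and -0.10 and 0.07 in elp3 ts2, a difference from ts2 of 0.84 (SE 0.16, limma adjusted p = 0.0026). RPS24B kept its call with the range block and without either hpa2 ts2 array, and RPS30A lost it in each (adjusted p = 0.50, 0.14 and 0.14). All but RPL28 of these have a close paralog whose RNA may bind the same spot. The only lower member, RPP1, encodes a subunit of ribonuclease P and entered the list through its name. The list's median level was -0.61 and -1.04 on the hpa2 ts2 arrays, and it overlapped the range of -1.23 to -0.68 on the ts2 arrays. Of the mitochondrial ribosomal protein genes, 1 of 65 was called (MRPS17, higher by 0.77, SE 0.21, limma adjusted p = 0.028, lost with the range block and without either hpa2 ts2 array), with a median difference of 0.24. Of 105 ribosome biogenesis genes, 4 were higher (NOG2, UTP11, UTP20 and REI1) and 3 lower (MAK5, MAK21 and ERB1). These shares of 3.81% and 2.86% were near the 2.84% and 3.44% over all genes. ERB1 read -0.74 on array A, within the ts2 range of -0.88 to -0.65, and -3.83 on array B, and without array B its difference was -0.02 (adjusted p = 0.97).

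**Figure D3:**
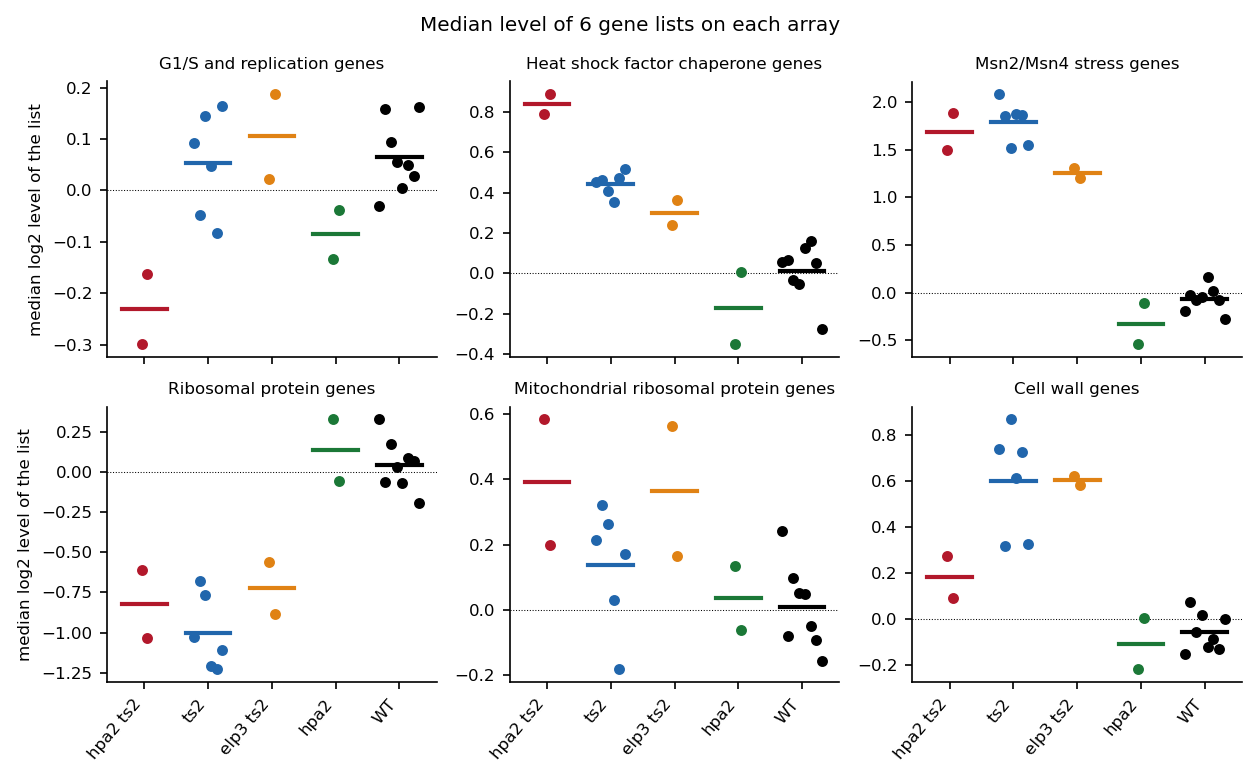
Median log2 level of the members of 6 gene lists on each array (points) of hpa2 ts2, ts2, elp3 ts2, hpa2 and WT, with the group mean as a bar. The G1/S and replication list is at -0.30 and -0.16 in hpa2 ts2 and at -0.08 or above in ts2, and the chaperone list is at 0.79 and 0.89 against 0.35 to 0.52.

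Shares called lower in the next lists were 8% (phosphate), 9.68% (cell wall), 7.14% (pheromone), 4.48% (Gcn4), 3.85% (sulfur) and 8% (TCA), beside 3.44% over all genes. Shares called higher were 1.49% (Gcn4), 7.69% (sulfur), 4% (TCA) and 0 in the others, beside 2.84%. Each share rests on few genes. In a list of 25 phosphate-related genes, PHO3 and VTC1 were lower. PHO3, an acid phosphatase, read -1.52 and -1.54 against -0.95 to -0.45 (difference -0.83, SE 0.14, limma adjusted p = 0.001). VTC1, of polyphosphate synthesis, read -0.23 and -0.19 against -0.04 to 1.50. VTC1 lost its call with the range block (adjusted p = 0.11) and without array B (0.19), and PHO3 kept its call in each of these. Of 31 cell wall genes, 3 were lower (CIS3, CHS3 and SCW10) and 0 higher. The cell wall list's median level was 0.28 and 0.09 in hpa2 ts2, 0.32 to 0.87 in ts2 and 0.62 and 0.58 in elp3 ts2. Taken gene by gene, the gaps were smaller. The median difference of its members from ts2 was -0.18, and -0.04 with the range block. From elp3 ts2 it was -0.04, with 0 members called. CHS3, a chitin synthase, read -2.58 on array A and 0.04 on array B, and without array A its difference of -1.45 was -0.17 (adjusted p = 0.85). The CIS3 call was lost with the range block (adjusted p = 0.79) and without array B (0.47). Of 28 pheromone response genes, 2 were lower (PRM8 and FIG2), and FIG2 lost its call with the range block (adjusted p = 0.56), without array A (0.099) and without array B (0.11). Of 67 amino acid synthesis genes under Gcn4, 3 were lower (HIS4, LYS2 and SER3) and 1 higher (GCV3), and HIS4 read 1.58 and 1.54 against 1.96 to 2.72, with 1.50 and 1.61 in elp3 ts2. With the range block the calls of HIS4 (adjusted p = 0.52), LYS2 (0.71) and SER3 (0.36) were lost, and without array B those of HIS4 (0.25) and LYS2 (0.20, and 0.14 without array A). Sulfur and methionine genes split, with MET14 and MET22 higher and MUP3, a methionine permease gene, lower, of 26. MET14 lost its call with the range block (adjusted p = 0.74), without array A (0.17) and without array B (0.20), and MUP3 kept its call in each. Of 25 genes of the TCA and glyoxylate cycles, CIT2 was higher (1.87 and 1.59 against 0.68 to 1.50) and ICL1 (-0.02 and -0.30 against 0.39 to 1.10) and LPD1 were lower. CIT2 (adjusted p = 0.52) and ICL1 (0.38) lost their calls with the range block, ICL1 also without array B (0.24), and CIT2 without array A (0.23) or B (0.07). In elp3 ts2, CIT2 read 2.26 and 1.95 and ICL1 read 0.02 and -0.15, on the same side of the ts2 range as in hpa2 ts2. ICL1 encodes isocitrate lyase and CIT2 the citrate synthase of peroxisomes, both of the glyoxylate pathway.

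Lists of the transcription machinery and of acetyltransferases had at most 1 member called each. These were 6.67% of TFIID, 5.56% of SAGA, 7.69% of NuA4 and 9.09% of histone genes, near the 6.28% called over all genes. Of 15 TFIID subunit genes, TAF8 alone was called, at 0.60 and 0.42 in hpa2 ts2, 1.14 to 2.62 in ts2 and 0.33 and 0.61 in elp3 ts2 (difference -1.30, SE 0.29, limma adjusted p = 0.0079). TAF8 lost its call with the range block (-0.79, adjusted p = 0.33) and without array B (-1.20, adjusted p = 0.10). TAF1 itself read 0.40 and 0.45 against 0.01 to 0.56. TRA1, which belongs to both SAGA and NuA4, was the 1 called member of each complex's list (of 18 and 13 genes), at -0.51 and -0.86 against -0.49 to -0.02 (adjusted p = 0.042, lost with the range block at 0.17, without array A at 0.057 and without array B at 0.34). HPA3, the close relative of HPA2, read -0.0046 and -0.20 against -0.47 to 0.20 and was not called. Of the 15 other acetyltransferase genes and the 15 genes of polyamine synthesis and transport, 0 were called. Of 11 histone genes, HTZ1 alone was called. Markers of mating type gave 0 of 4 alpha-specific and 0 of 5 a-specific genes called. The alpha-specific median level was -1.90 and -2.15 in hpa2 ts2, -2.57 to -1.12 in ts2 and -0.76 to 0.36 in WT. These markers were thus low in both strains, and the lack of calls does not check the mating type.

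Among the outermost genes of the chromosomes, a larger share was called lower in hpa2 ts2 than over all genes. This group was chosen after its values were seen, so it has no test. Of the tested genes among the 3 outermost that RefSeq (R64) lists on each chromosome arm, 25 of 83 were lower (30.1%) and 0 higher, beside 3.44% lower over all genes. The other 58 were not called. The median level of the 83 genes was -0.91 on hpa2 ts2 A, within the range of -0.94 to -0.50 on the ts2 arrays, and -0.99 on hpa2 ts2 B, below it. It was -1.21 and -1.18 in esa1 ts2, -0.94 and -1.17 in sas3 ts2 and -0.86 and -0.96 in gcn5 ts2. In elp3 ts2 it was -0.81 and -0.74, and in hat1 ts2 -0.65 and -0.60. Low levels of these genes were thus not particular to hpa2 ts2. The median difference of the 83 genes from ts2 was -0.24, and -0.13 with the range of title numbers as a block. Of those ranked 4 to 10 from the end, 10 of 200 were lower and 12 higher, and of those further in than rank 50, 112 of 4126 were lower and 114 higher. The 25 lower genes included 5 of 7 YRF1 genes, which encode a helicase carried by Y′ elements, the repeats next to telomeres. The only others with a standard name were MPH3 and PAU16. The rest had systematic names only, and which of them also lie in Y′ elements was not determined. The COS genes and the other PAU genes of this group were not called. Whether the share goes with chromosome position or with repeated sequence was not tested. YEL077C had the smallest p-value of the 25, at -1.47 and -1.43 in hpa2 ts2 and -0.55 to -0.02 in ts2 (difference -1.12, SE 0.16, limma adjusted p = 6.3e-05). YRF1-1 read -1.47 and -1.94 in hpa2 ts2 and -1.39 to -0.46 in ts2 (difference -0.68, SE 0.18, limma adjusted p = 0.02).

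Near-identical copies share RNA on their spots, so these genes are not independent measurements. The median level of the 7 YRF1 genes was -1.47 and -1.94 in hpa2 ts2, -1.30 to -0.55 in ts2, -1.04 and -1.34 in elp3 ts2, -0.69 and -0.87 in hat1 ts2, -1.56 and -1.36 in sas3 ts2, -1.06 and -1.20 in gcn5 ts2, -1.62 and -1.78 in esa1 ts2, -0.34 and -0.14 in hpa2 and -0.14 to 0.29 in WT. All of these ts2 groups thus lay below WT. Both arrays of sas3 ts2 and of esa1 ts2 also lay below the ts2 range, as did elp3 ts2 B. The gcn5 ts2 and hat1 ts2 arrays and elp3 ts2 A lay within it. The count of 25 was 0 on the scale as deposited, with scaled spread or from the 8 arrays alone, 3 from title numbers 5 to 9 and ts2 alone, 2 with the range of title numbers as a block, 5 with array weights, 16 without hpa2 ts2 A and 7 without hpa2 ts2 B. None of the 83 was called lower than in elp3 ts2, with a median difference of -0.19.

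**Figure D4:**
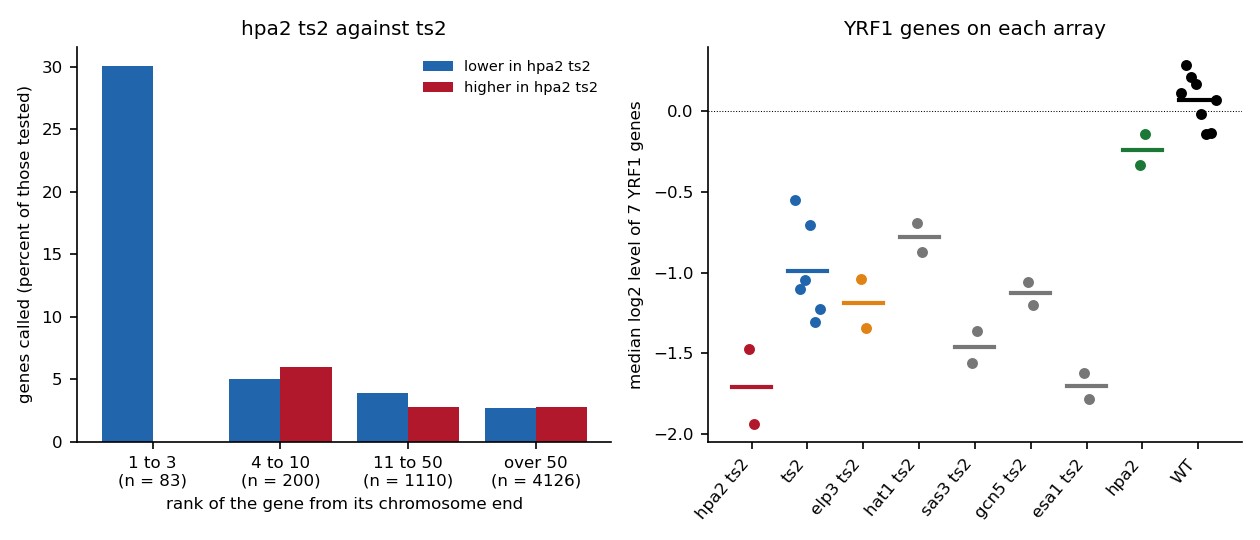
Left, percent of tested genes called lower or higher in hpa2 ts2 than in ts2 (y axis) by the gene's rank from the chromosome end (x axis); right, median log2 level of the 7 YRF1 genes on each array (points) by group, with the group mean as a bar. The 83 genes of ranks 1 to 3 have 30.1% lower and 0 higher, and the hpa2 ts2 arrays are at -1.47 and -1.94.

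Set against elp3 ts2 on the same title numbers, 15 of 5508 genes were called (0.272%), 12 higher and 3 lower in hpa2 ts2, and 401 had an unadjusted p under 0.05. Among genes with a standard name, CRZ1, VPS20 and COG6 had the 3 largest rises. COG6, a subunit of the Golgi tethering complex COG, read 1.30 and 0.91 in hpa2 ts2, -1.28 and -0.26 in elp3 ts2 and 0.11 to 0.58 in ts2, a difference from elp3 ts2 of 1.87 (SE 0.28, n = 2 and 2, limma adjusted p = 0.00063). CRZ1, the transcription factor activated by calcineurin, read 0.37 and 1.15 in hpa2 ts2 and -4.34 and -0.36 in elp3 ts2, so its difference of 3.11 (SE 0.64, limma adjusted p = 0.029) rested on elp3 ts2 array A. UTR1, an NAD kinase, was the 1 lower gene with a standard name, at -1.73 and -0.15 against 0.01 and 0.72 (difference -1.30, SE 0.29, limma adjusted p = 0.048). UBX4, a cofactor of the Cdc48 ATPase, was singled out after its values were seen, since it read 1.38 and 1.78 in hpa2 ts2, 1.70 above elp3 ts2 (SE 0.26, adjusted p = 0.00082) and 1.11 above ts2 (adjusted p = 0.0024). In a fit of the arrays with title numbers 5 to 9 alone, chosen after seeing the data, 0 genes were called. Leaving out hpa2 ts2 array A gave 127 calls, array B 35 and elp3 ts2 array B 53.

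Whether hpa2 made another difference beside ts2 than alone was tested as an interaction, hpa2 ts2 minus ts2 minus hpa2. Of 5471 genes, 85 were called (1.55%), 26 positive and 59 negative. In hpa2 alone, 22 of 5492 genes were called against WT (0.401%), 14 higher and 8 lower, and 1 was with the range block. Its 2 arrays correlated at r = -0.03 with each other. Array A of hpa2 also correlated negatively with every ts2 array, in either dye orientation. The values ran from -0.39 with ts2 D to -0.15 with ts2 B, and that with ts2 A was -0.31. The dyes of both hpa2 arrays are stated in the labels, so the direction was kept. RFC5 (-2.35, SE 0.26, limma adjusted p = 5e-06), MAK5 (-1.40, SE 0.18, limma adjusted p = 3.9e-05) and PRM8 (-1.54, SE 0.25, limma adjusted p = 0.0013) had negative interactions, and in hpa2 alone they read 0.84 and 0.22 (RFC5), -0.02 and -0.20 (MAK5), and 0.07 and 0.15 (PRM8). VPS20 had a positive one of 1.43 (SE 0.34, limma adjusted p = 0.025). For ATP20, THI13, NFG1 and FIT1, 2 arrays of 1 group lay far apart. ATP20, an ATP synthase subunit gene (2.46), read -0.09 on hpa2 A and -3.85 on hpa2 B. THI13, a thiamine synthesis gene with near-identical copies (-2.96), read -0.12 on hpa2 A and 4.24 on hpa2 B. NFG1 (-2.77) read 2.12 on hpa2 A and -0.10 on hpa2 B. FIT1, a cell wall gene of siderophore uptake (2.22), read -0.34 and 2.13 on the hpa2 ts2 arrays and -2.23 to -0.24 in ts2. Leaving out 1 array at a time moved the count of called interactions between 40 and 252, the lowest without hpa2 ts2 B and the highest without hpa2 ts2 A, with 55 without hpa2 A.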

How the data were processed

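The deposited values are ratios of mutant to WT RNA for 7056 spots on each of 38 arrays. Per the series' design text, the authors used the mode to normalize the duplicate dye-swapped arrays and then applied a correction from bacterial spike-in RNA added per culture density. Which of these steps the deposited ratios hold is not given in the sources used here, nor is a genome build. Spots at or below 0 were dropped, log2 was taken with no pseudocount, the array median was subtracted, and spots of 1 gene were averaged. Names came from the platform annotation, updated through RefSeq (5574 of 5579 named spots matched; 1477 spots carry no single name and were left out), giving 5548 genes.

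All 38 arrays entered 1 limma fit (version 3.58.1, R 4.3.3) with 13 mutant groups, WT fixed at 0 and a dye term per gene (0 for WT arrays, whose labels name no test dye). A gene needed a value on both hpa2 ts2 arrays and on 4 of 6 ts2 arrays. Precision is limited by having 2 arrays in a group: the median SE of a difference was 0.18. The code was tested on simulated data.

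Named genes were the 12 largest called rises and falls whose hpa2 ts2 arrays both lay outside the ts2 range, the 3 largest called interactions and differences from elp3 ts2 each way, up to 2 called members of a gene list, the acetyltransferase genes, and HPA3, TAF1, SLH1 and HIS3. Members called in short lists are also named. The arrays, lists and rules were chosen with earlier results of these data known. Alternatives were other scales, dye terms, blocks, array sets, weights and filters, and each array left out.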

Additional observations from a re-analysis of the deposited data

Results flagged for a closer look

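Among the 66 named genes, 5 had a ts2 array far from the others, where chance alone flags about 1 group in 20. ATG10 read 0.21 on ts2 F, with the next array at 0.63. DNL4 read 1.61 on ts2 F (next 0.41) and CPT1, a phospholipid synthesis gene, read -0.81 on ts2 F (next -0.45). FIT1 read -2.23 on ts2 B (next -0.82), and ICL1 read 1.10 on ts2 E (next 0.60). All 5 genes stayed called without those arrays.

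Of the 66 named genes, 17 had a called interaction (limma, adjusted p under 0.05), beside 1.55% of all genes. Some were named because their interaction was called, so this share is no result about the named genes. An effect of hpa2 cannot be told apart here from a difference between title numbers. The interaction was positive for ATP20 (2.46), FIT1 (2.22), FYV12 (2.17), NOG2 (1.50), VPS20 (1.43) and IRC4 (1.21). It was negative for THI13 (-2.96), NFG1 (-2.77), RFC5 (-2.35), PRM8 (-1.54), MAK5 (-1.40), GDH3 (-1.34), HTZ1 (-1.17), ATG10 (-1.08), PHO3 (-0.998), BUD8 (-0.87) and MUP3 (-0.72). The values of ATP20 and THI13 rested on hpa2 array B, as given above. The hpa2 arrays behind these values have the title numbers 9 and 68, and with the range of title numbers as a block 41 interactions were called over all genes, 33 of them among the 85.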

How the results depend on the processing

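Against ts2, 347 genes were called. The count was 1 on the scale as deposited, 3 with each array scaled by its spread, 229 with no dye term, 57 with the range of title numbers as a block, 152 with the array letter as a replicate block, 6 from the 8 arrays alone, 43 with array weights and 21 from title numbers 5 to 9 and ts2 alone (chosen after seeing the data). It ran from 139 (without hpa2 ts2 B) to 420 (without ts2 F) with 1 array left out. The 15 differences from elp3 ts2 became 1 on the scale as deposited, 5 with the replicate block, 7 without WT arrays, and 0 with title numbers 5 to 9 alone or the title number as a block over 4 arrays, and ran from 17 to 127 with 1 array left out. The 85 interactions became 0 on the scale as deposited, 47 with no dye term, 41 with the range block, 24 with the replicate block and 48 without WT arrays, and ran from 40 to 252. Deviations of same-lettered hpa2 ts2 and ts2 arrays correlated at r = -0.0016 (A) and -0.11 (B). With 2 hpa2 ts2 arrays, the deviations of A and B mirror each other. Across letters the values were 0.0017 and 0.11, so they cannot show whether the letters pair the arrays. Other alternatives that were run moved none of these counts by over 1.5 times, and none of the 53 named genes called against ts2 changed direction. Counts with scaled spread, array weights, the title number as a random block or a dye term per range were taken against ts2 only. ATP20, HAT1, HIS3, HPA2, HPA3, SAS3 and THI13, which were not called there, changed sign under at least 1 alternative. Of the 53, 2 stayed called with scaled spread (MAK5 and RFC5), 14 with the range block, 13 with array weights, 5 from the 8 arrays alone, 27 without hpa2 ts2 A, 21 without hpa2 ts2 B and 0 on the scale as deposited. Why the calls depend on these settings was not tested. The arrays give no counts, so no depth is known.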

Other observations

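Outside the lists and the naming rule, CAT2, the carnitine acetyltransferase of peroxisomes and mitochondria, had the pattern of MAK5, and it was singled out after its values were seen. It read 0.01 and 0.23 in hpa2 ts2 and 1.07 to 1.84 in ts2, a difference of -1.30 (SE 0.16, limma adjusted p = 1.1e-05), and -1.14 with the range of title numbers as a block (adjusted p = 0.0016). BIO2 and BNA1, genes of biotin and NAD synthesis that were also singled out after their values were seen, were below 0 on all 8 arrays and higher in hpa2 ts2 than in ts2. BIO2 read -1.24 and -2.04 against -2.74 to -1.91, so array B lay within the ts2 range, and BNA1 read -1.25 and -1.54 against -2.87 to -1.60. Their differences from ts2 were 0.80 for BIO2 (SE 0.22, adjusted p = 0.028) and 0.77 for BNA1 (SE 0.20, adjusted p = 0.023). Both calls were lost with the range of title numbers as a block (adjusted p = 0.36 for BIO2 and 0.32 for BNA1), and neither gene was called against elp3 ts2 (differences of -0.06 for BIO2 and -0.03 for BNA1).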
